A study of Rattus norvegicus with 10 samples.

Results

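Aminoacyl-tRNA biosynthesis is the step that couples each amino acid to its transfer RNA. The genes described here are those whose isoforms carry the KEGG text "Aminoacyl-tRNA biosynthesis" in the deposited isoform table of rat liver, where KEGG is a database of pathways. The rule found 62 isoforms of 45 genes, of 20226 genes in the table, and used no expression value. Of these genes, 20 encode cytosolic enzymes and 18 carry a name ending in 2 that marks mitochondrial enzymes. The other 7 are related genes, among them LOC100911305, treated here as a possible copy of Mars2. Tarsl2 is among the 18 by its name only, since it is described as a threonyl-tRNA synthetase-like protein. All 45 genes had a mean of at least 1 FPKM (a fragment count per transcript length and library size) and entered the tests, together with 11139 genes in all.

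Livers came from Wistar rats of wild type genotype. SG denotes the 5 livers from rats with a sleeve gastrectomy, in which the outer curve of the stomach is cut away, and SHAM denotes the 5 from sham-operated rats. Both groups had been fed fat as 60% of calories for 4 weeks and then injected once with streptozotocin at 35 mg/kg, which kills insulin-making beta cells, and rats with fasting glucose above 16.7 mmol/L were taken as diabetic. A fast of 16 h and a time of 3 days after streptozotocin are also recorded for every sample. Whether the livers were taken fasted was not established here. SG livers are labelled as taken 3 months after the operation and SHAM livers carry no time, so operation and time cannot be told apart. The model is a chemical one on a high-fat diet, and every rat in both groups carried it. No ages were found in the labels. Nothing in them ties a sample to a rat of its own, so each p-value reflects only how far these samples spread, and that spread may be technical.

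Aminoacyl-tRNA synthetases read the genetic code by joining an amino acid to the transfer RNAs that carry its anticodons. Most amino acids have one enzyme for the cytosol and another, also encoded in the nucleus, for the mitochondrial matrix, while lysyl- and glycyl-tRNA synthetase serve both compartments from a single gene. Several cytosolic enzymes sit together in the multisynthetase complex. In amino acid shortage the kinase GCN2 senses uncharged transfer RNA, and the transcription factor ATF4 then raises genes that include many cytosolic synthetases. It does so with C/EBP partners at composite elements that contain the letters TTGCATCA in amino acid response elements. Liver makes albumin and most other plasma proteins, so its demand for charged transfer RNA is large.

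The promoters are shown first because a short run of letters linked to the amino acid response was found in cytosolic windows and in no mitochondrial one, and the choice of genes did not use sequence. RefSeq windows of build GRCr8, from 250 bases before to 50 bases after each gene's start, were matched for 38 of the 45 genes, 17 cytosolic, 16 mitochondrial and 5 related. The letters TTGCATCA, searched on both strands, lay in 7 of the 17 cytosolic windows, in 0 of the 16 mitochondrial windows and in 0 of the 5 related windows. Of 33469 windows of the same length, 0.795% held them. The 7 genes were Aars, Cars, Iars, Mars, Nars, Tars and Yars, the synthetases for alanine, cysteine, isoleucine, methionine, asparagine, threonine and tyrosine. The stretches around the match in 6 of them are printed 5′ to 3′ on the strand that reads TTGCATCA, which stands in capitals.
Cars, chr1:208225334-208225363, minus strand: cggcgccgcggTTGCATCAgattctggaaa
Iars, chr17:15193658-15193687, minus strand: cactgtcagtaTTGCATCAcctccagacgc
Mars, chr7:65023752-65023781, minus strand: gcccgttccggTTGCATCAgcgtgggctcc
Nars, chr18:60275778-60275807, plus strand: tgactgaagcgTTGCATCAgatcacctagg
Tars, chr2:62114811-62114840, minus strand: ctggcgtcccgTTGCATCAgctggttagct
Yars, chr5:146820190-146820212, minus strand: caggTTGCATCAgctgagctcgt

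With the start base counted as 1 and the base before it as -1, the match began at -27 in Tars, -24 in Iars, -17 in Mars and -14 in Nars. It began after the start at 18 in Cars and at 39 in Yars. In Nars and Yars the letters TTGCATCA read on the strand opposite to the gene, and in the other 4 printed on the gene's own strand. The base after the match was g in 5 of the 6 stretches as printed and c in Iars. The looser composite element TGATGNAA contains the reverse complement of TTGCATCA, so the searches overlap. It marked the same 7 genes and lay in 3.98% of all windows. A match of letters describes the sequence and shows no binding.

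The bases before the start of Iars are given in full, with TTGCATCA in capitals, because Iars was the one cytosolic enzyme below its mitochondrial partner. The stretch also holds CACGTG, an E-box, at -100.
Iars, chr17:15193653-15193902, minus strand: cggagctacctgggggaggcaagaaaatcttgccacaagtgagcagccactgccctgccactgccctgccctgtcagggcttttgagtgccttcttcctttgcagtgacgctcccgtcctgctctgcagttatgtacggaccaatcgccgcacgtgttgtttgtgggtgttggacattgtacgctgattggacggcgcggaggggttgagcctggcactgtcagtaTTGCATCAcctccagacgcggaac
CACGTG was also in the windows of Aars, Farsb, Tars, Vars and Ears2 and in 6.42% of all windows. The palindromic consensus site of NRF1, a factor of nuclear genes for mitochondrial proteins, was in 1 of the 16 mitochondrial windows, at -64 in Wars2, and in 0.852% of all windows. That stretch is printed with the site in capitals.
Wars2, chr2:189150287-189150316, plus strand: cagaagacaaGCGCATGCGCagtaagcaca

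Library totals ran from 77617460 to 92110190 estimated counts in SG and from 65824088 to 85520959 in SHAM, and the 45 genes took 0.140% to 0.183% of them. Albumin stood at 15517 to 27810 FPKM in the 10 libraries, as fits a tissue labelled liver. In bulk tissue, fewer cells of a type and less RNA per cell cannot be told apart. The libraries SG 2 and SHAM 5 carried the largest sums of 10 macrophage and Kupffer cell markers, 598.6 and 619 FPKM, against 238.2 to 367 in the other libraries, with none of the markers at 0 in every library.

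Cytosolic enzymes were the more abundant class. Their mean over the 10 libraries ran from 6.76 to 54.8 FPKM with a median of 11.2, against 1.14 to 14.7 with a median of 3.70 for the names ending in 2. The median over all tested genes was 5.60 FPKM. Aars, the alanine enzyme, led with 55.4 ± 6.46 FPKM in SG livers and 54.3 ± 8.55 in SHAM (mean ± SD, n = 5 each), at the 93.3 percentile of tested genes. By library, Aars read 50.5, 66.3, 53.7, 55.6 and 50.8 FPKM in SG 1 to SG 5 and 47.8, 47.5, 55.1, 68.4 and 52.4 in SHAM 1 to SHAM 5. SG 2 and SHAM 4 stood highest, and the groups overlapped over nearly their whole range.

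Eprs, which joins both glutamate and proline, was next at 43.8 ± 2.48 FPKM in SG and 39.5 ± 5.38 in SHAM, followed by Tars, the threonine enzyme, at 22.8 ± 3.93 and 22.2 ± 6.84 (SD, n = 5 each). The lowest cytosolic means were those of Wars, 6.76 FPKM, Rars, 6.77, and Farsb, 7.34, the enzymes for tryptophan and arginine and the beta subunit of the phenylalanine enzyme. The neighbours Wars and Rars, 6.86 ± 1.48 and 6.5 ± 0.854 FPKM in SG, did not differ beyond their spread. Among the names ending in 2, Iars2 for isoleucine was highest at 14.7 FPKM, then Tars2 for threonine at 11.6 and Fars2 for phenylalanine at 7.48. Pars2 for proline was lowest at 1.14 FPKM, with Tarsl2 at 1.64 and Wars2 at 2.34.

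The 7 related genes covered both ends of that range. Pstk and then Sepsecs act to make selenocysteine on its transfer RNA, and they averaged 2.67 and 11.3 FPKM. Gatb, Gatc and Qrsl1 encode the 3 subunits of the mitochondrial GatCAB enzyme, which turns glutamate on a transfer RNA into glutamine, and averaged 5.61, 6.94 and 1.31 FPKM. Mtfmt, which formylates the initiator methionine of mitochondria, averaged 4.29 FPKM. LOC100911305 averaged 2.44 FPKM beside 2.48 for Mars2. Both names map to the same RefSeq gene ID, although the table places them at separate loci of chromosome 9. Their sequences were not compared. Reads could be split between them, so both values are uncertain.

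**Figure D1:**
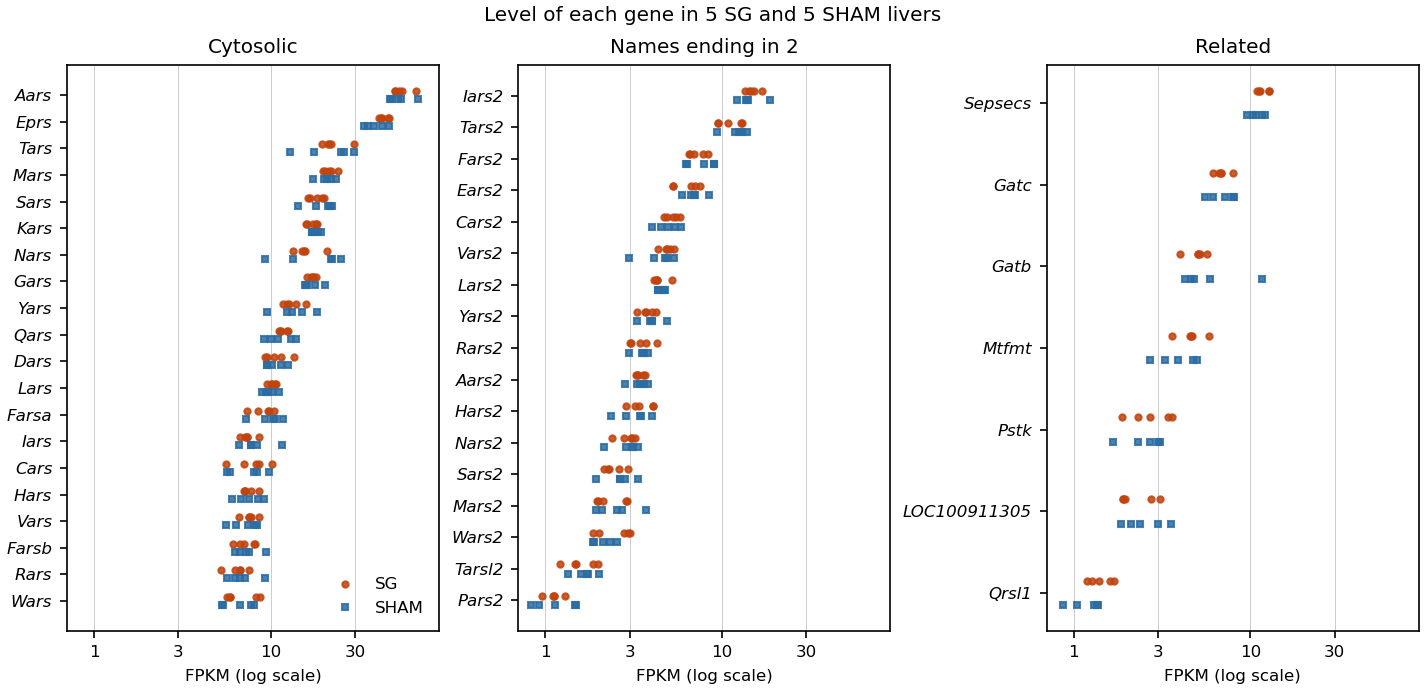
FPKM of each gene on a log axis in every library, with SG as circles and SHAM as squares and the genes ordered by mean within 20 cytosolic enzymes, 17 of the 18 names ending in 2 and 7 related genes. Aars and Eprs stand at the top near 50 and 40 FPKM, Iars2 leads the names ending in 2 at 14.7 FPKM, and the ranges of SG and SHAM overlap for every gene shown.

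Set side by side for 15 amino acids, the cytosolic enzyme had the higher FPKM in all 10 libraries for 14 pairs. The ratio of means was largest for alanine, where Aars stood 16.1 times above Aars2, with a range of 12.6 to 18.9 over libraries. Serine (Sars over Sars2) stood at 7.35 and asparagine (Nars over Nars2) at 5.92. Methionine (Mars over Mars2) gave 8.51, but 4.29 with Mars2 and LOC100911305 summed, so its place is uncertain. At the low end, Farsa, the alpha subunit of the cytosolic phenylalanine enzyme, stood 1.27 times above Fars2.

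Isoleucine was the exception. Iars over Iars2 was 0.54, with a range of 0.437 to 0.696, so that the mitochondrial gene had the higher level in 10 of 10 libraries. The threonine pair varied most in relation to its size, with Tars over Tars2 running from 1.04 in SHAM 2 to 3.14 in SG 2. SG and SHAM ratios overlapped for each of the 15 pairs. These ratios compare FPKM, which is per length, and rest on the isoform lengths that the assembly gave each gene.

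**Figure D2:**
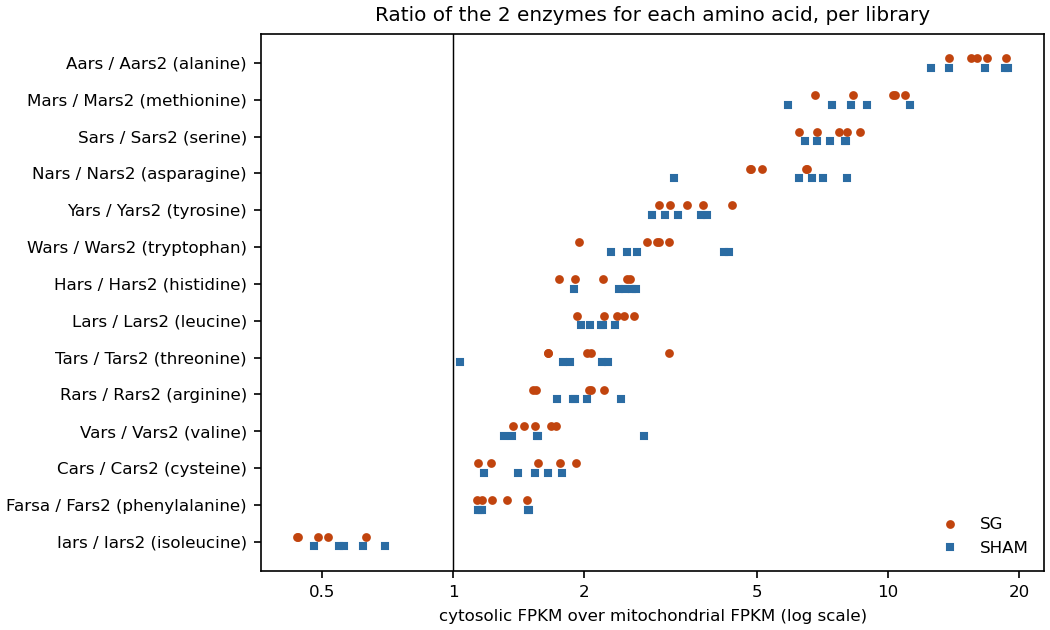
Cytosolic over mitochondrial FPKM for 14 of the 15 amino acids on a log axis, one point per library, SG as circles and SHAM as squares, with the line at equal levels. Isoleucine is the one pair to the left of the line, from 0.437 to 0.696, and alanine is the pair farthest to the right, from 12.6 to 18.9.

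Whether the operation altered the set was tested with edgeR's quasi-likelihood test across all genes. None of the 45 genes passed an adjusted p of 0.05 between SG and SHAM, with a Benjamini-Hochberg adjusted p of 0.991 or above, and 0.0% of the 11139 tested genes passed it (0 genes). At an unadjusted p under 0.05 there was 1 of 45 genes, against 4.53% of all tested genes. DESeq2 called 0 of 45 and limma on log2(FPKM + 0.5) called 0 of 45 at an adjusted p under 0.05, against 0.162% and 0.0% of tested genes. At an unadjusted p under 0.05, DESeq2 had 1 of 45 (5.65% of all genes) and limma had 0 of 45 (6.28%).

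The intervals show what size of difference the libraries allow. The 95% confidence interval of the SG to SHAM difference stayed inside 1.5-fold in both directions for 42 of 45 genes, against 60.6% of all tested genes, and within 2-fold for 45 of 45. The 3 genes whose interval passed 1.5-fold were Nars, Mars2 and LOC100911305. The median half-width was 0.30 on the log2 scale for the 45 genes and 0.37 for all tested genes. In simulated counts with known answers, the test recovered 58% of genes changed 2-fold and 89% of those changed 4-fold. There, 100 genes of each kind were drawn at random among 11139. The rates are therefore not those of the 45 genes, nor of data with fewer changed genes.

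**Figure D3:**
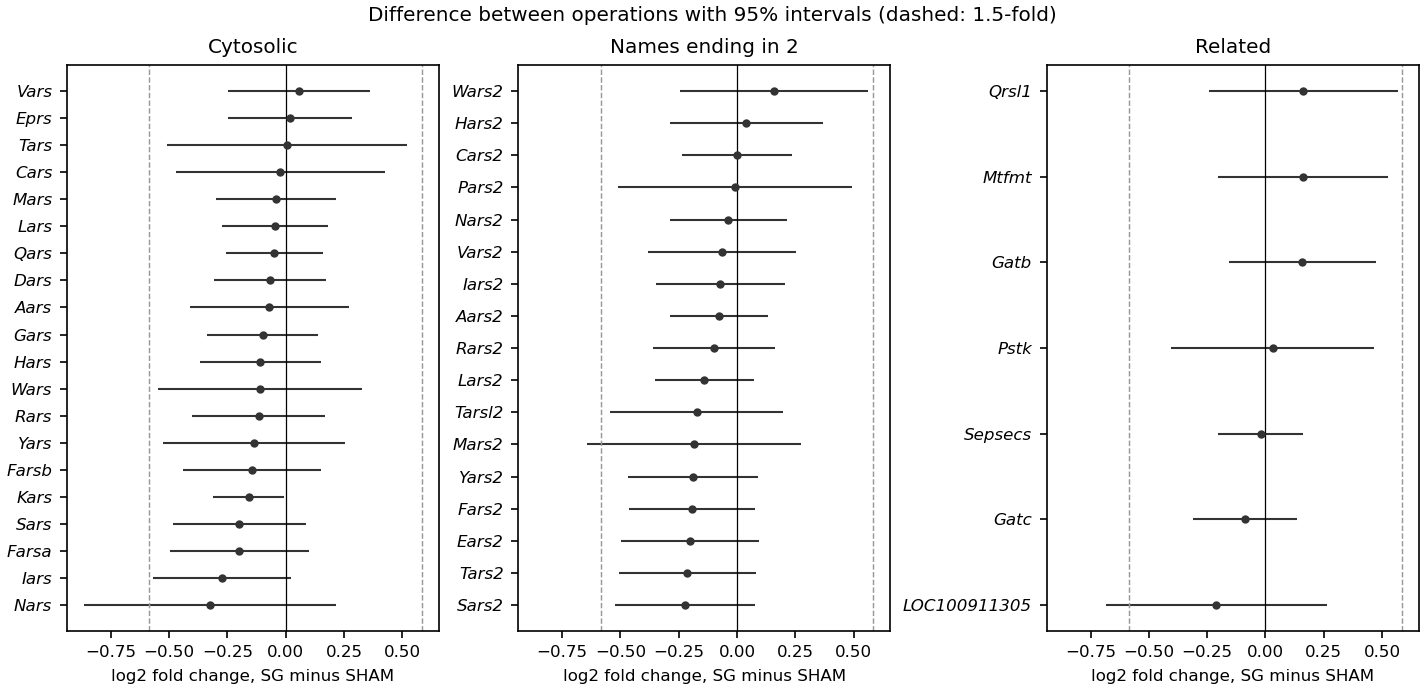
Log2 fold change (SG minus SHAM) of each gene from edgeR with its 95% confidence interval, in 20 cytosolic enzymes, 17 of the 18 names ending in 2 and 7 related genes, dashed lines marking a 1.5-fold change. Points lie between -0.33 and 0.16, and the intervals of Nars, Mars2 and LOC100911305 are the ones that cross a dashed line.

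The cytosolic enzyme with an unadjusted p under 0.05 was Kars, the lysine enzyme and a member of the multisynthetase complex. It read 18.2, 15.9, 17.5, 16.2 and 18.0 FPKM in SG and 19.4, 18.6, 17.1, 17.6 and 17.1 in SHAM, so the groups overlapped. As CPM, counts scaled to library depth but not to transcript length, it stood at 40.1 to 47.9 in SG and at 47.9 to 50.7 in SHAM, a gap of less than 0.1 CPM between groups that 0.79% of all genes also separated. The edgeR log2 fold change was -0.16 ± 0.07 (SE), with an interval of -0.31 to -0.01, an unadjusted p of 0.042 and an adjusted p of 0.991.

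The other 7 enzymes of the multisynthetase complex gave log2 differences of -0.27 (Iars), -0.12 (Rars), -0.07 (Dars), -0.05 (Qars), -0.05 (Lars), -0.04 (Mars) and 0.02 (Eprs). For all 8 the interval lay within 1.5-fold. Iars read 7.12, 8.58, 7.31, 6.70 and 7.36 FPKM in SG and 7.72, 7.72, 8.42, 11.6 and 6.64 in SHAM. SHAM 4 was the highest library, and without it the log2 difference of Iars went from -0.27 to -0.16. In CPM both SHAM 4 and SHAM 3 were high, at 72.8 and 64.5, against 42.3 to 52.7 in the other libraries. The scaffold proteins of the complex, which are not enzymes, gave 0.24 for Aimp1, -0.19 for Aimp2 and -0.08 for Eef1e1, none past the adjusted threshold in edgeR.

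Of the free-standing cytosolic enzymes, Nars had the largest difference, -0.33 ± 0.24 (SE), and one of the widest spreads. It read 20.8, 15.4, 15.6, 15.0 and 13.4 FPKM in SG and 22.3, 9.25, 25.1, 22 and 13.3 in SHAM. SHAM libraries thus held both the lowest and the highest value. Sars, the serine enzyme, and Farsa each gave -0.20 ± 0.13 (SE), and Vars, the valine enzyme, gave 0.05 ± 0.14. Tars gave 0.01 ± 0.23 from 21.4, 29.6, 19.6, 21.3 and 21.9 FPKM in SG and 24.9, 12.9, 26.2, 29.6 and 17.5 in SHAM.

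Among the mitochondrial enzymes, the smallest unadjusted p belonged to Sars2 for serine, Tars2 for threonine, Fars2 for phenylalanine and Ears2 for glutamate, with log2 differences of -0.22, -0.21, -0.19 and -0.20. Tars2 read 13, 9.44, 9.44, 12.9 and 10.8 FPKM in SG and 13.9, 12.4, 11.9, 13 and 9.42 in SHAM, so the groups overlapped. In the other direction stood Wars2 for tryptophan at 0.16 ± 0.18 (SE) and Hars2 for histidine at 0.04 ± 0.15. Hars and Hars2 lie back to back on chromosome 18, their 5′ ends 97 bases apart in the table, and differed by -0.11 and 0.04 in log2 terms, both within their errors. The related genes ranged from -0.21 for LOC100911305 to 0.16 for Qrsl1.

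As a description of direction, 17 of 20 cytosolic and 16 of 18 mitochondrial genes had a log2 fold change below 0 in edgeR, and 3 of 7 related genes, against 52.6% of all tested genes. The median was -0.10 for the cytosolic genes, -0.09 for the mitochondrial genes, 0.03 for the related genes and -0.01 for all tested genes. On FPKM in limma the all-gene median was 0.08, and there the cytosolic median was 0.01 with 9 of 20 below 0, the mitochondrial median -0.02 with 11 of 18 below 0, and 30.4% of all genes were below 0. The change of scale moved the all-gene median too, and the cytosolic median lay below the all-gene median on both scales. Without SHAM 3 the edgeR cytosolic median was -0.02, with 14 of 20 genes below 0. Without SHAM 4, 13 of 20 cytosolic and 12 of 18 mitochondrial genes were below 0 in edgeR. Without SHAM 5 the counts were 19 of 20 and 17 of 18.

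Livers of the SHAM group spread more widely in these genes than the SG and SHAM averages lay apart. Each gene's log2 CPM was centred on its own mean over the 10 libraries, and the median of the cytosolic genes in SG 1 to SG 5 was 0.02, -0.01, -0.11, 0.00 and -0.13. In SHAM 1 to SHAM 5 it was 0.08, -0.15, 0.29, 0.24 and -0.23. SHAM 3 and SHAM 4 were the high livers and SHAM 5 and SHAM 2 the low ones, all within the same group. The median of all tested genes moved only between -0.04 and 0.03.

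Of the 20 cytosolic genes, 15 had their highest library in SHAM 3 (8) or SHAM 4 (7), against 25.6% of all tested genes. Of the 18 mitochondrial genes, 10 did, and 2 of the 7 related genes. The mitochondrial medians were 0.08, -0.22, -0.07, 0.03 and -0.04 in SG and 0.08, 0.01, 0.17, 0.18 and -0.16 in SHAM. SG 2 was the lowest library for 8 of 18 mitochondrial genes and for 4 of 20 cytosolic genes, against 16.6% of all tested genes, and SHAM 5 was lowest for 4 and 5 (13.2%).

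Summed FPKM of the cytosolic class over that of the mitochondrial class ran from 3.08 in SHAM 2 to 4.35 in SG 2, so the classes did not move in strict proportion. The SD of log2 CPM was larger in SHAM than in SG for 17 of 20 cytosolic genes and 13 of 18 mitochondrial genes, against 58.0% of all tested genes. The median SD of the cytosolic genes was 0.15 in SG and 0.27 in SHAM, and that of all tested genes was 0.24 and 0.27. Of the 5 red blood cell markers listed, 4 were in the table and none was at 0 in every library. Their summed level was 135.1 to 489 FPKM in SG and 244.8 to 1202 in SHAM. It was 1202 in SHAM 4 and 783 in SHAM 3, the libraries where the cytosolic genes were highest. In SHAM 5, where they were lowest, the summed level was 718. Its part in the library pattern was not tested, nor that of the macrophage markers that were high in SG 2 and SHAM 5.

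**Figure D4:**
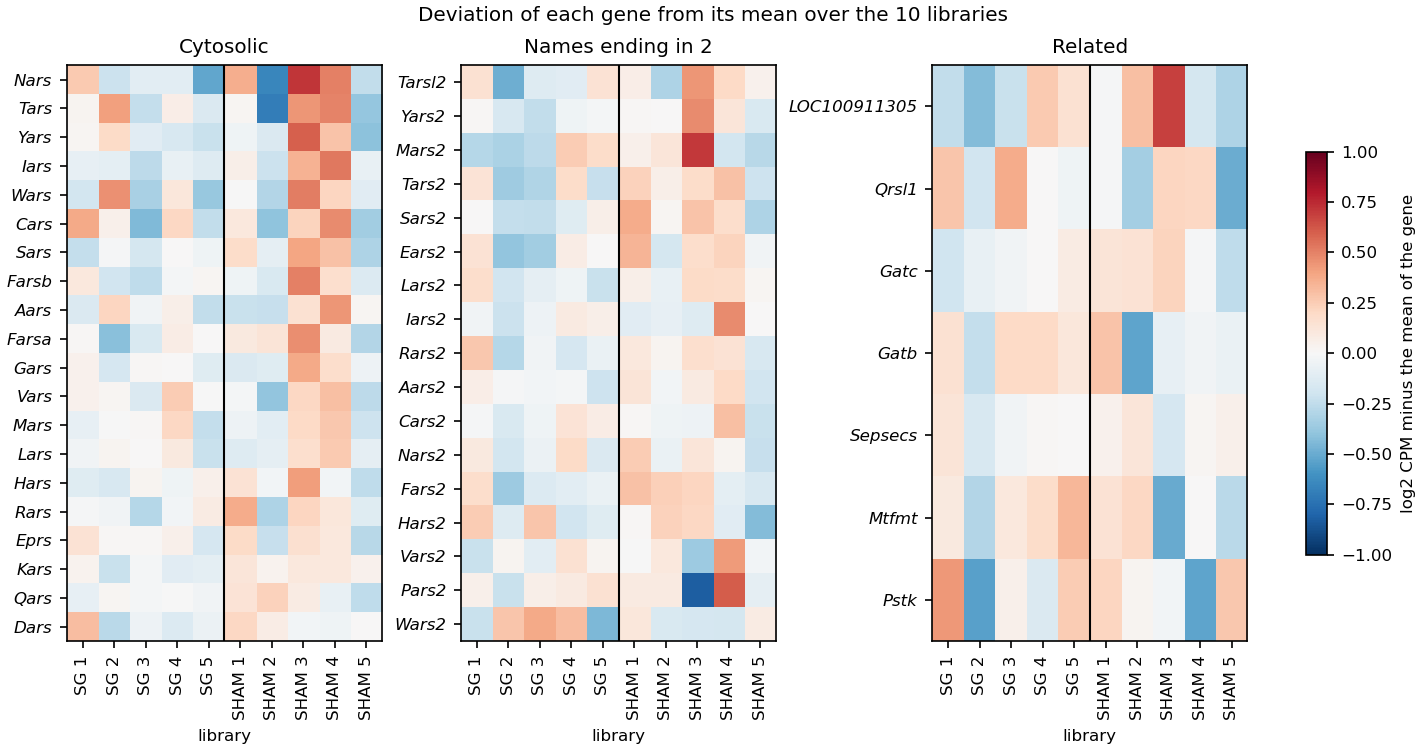
Heat map of log2 CPM minus the gene's mean over the 10 libraries, 44 of the 45 genes in rows and libraries in columns, red above and blue below the mean, with a line between SG and SHAM. SHAM 3 and SHAM 4 are red for most cytosolic genes, with column medians of 0.29 and 0.24, and SHAM 5 is blue with a median of -0.23.

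The widest swings belonged to Nars, Tars and Pars2 in CPM, with the highest library at 2.57, 2.27 and 2.69 times the lowest, against a median of 1.61 for the 45 genes and 1.79 for all tested genes. Nars stood at 98.0 CPM in SHAM 3 and 38.1 in SHAM 2, and Tars at 158 CPM in SHAM 4 and 69.4 in SHAM 2. Pars2, at 2.57 to 6.91 CPM, had the lowest FPKM of the set, while Qrsl1 was lower in CPM at 2.42 to 4.41. Sepsecs swung least, with a ratio of 1.23.

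How far the enzymes followed Atf4 across livers was tested as a slope on Atf4 log2 CPM with the operation in the model. Atf4 read 49.5, 41.2, 39.2, 37.7 and 55.4 FPKM in SG and 39.5, 45.6, 56.2, 57.8 and 39.7 in SHAM. SHAM 3 and SHAM 4, the libraries highest in cytosolic synthetases, were also the highest in Atf4. SG 5 came next in Atf4 at 55.4 FPKM, but its cytosolic median was -0.13. None of the 45 genes passed, with an edgeR adjusted p of 0.969 or above, and 0.0% of the 11138 genes tested did. The same test called 0.0% of genes simulated with a slope of 1, so it could not have shown such a slope at this number of libraries and range of Atf4.

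At an unadjusted p under 0.05 there were 4 of 45 genes, against 4.9% of all genes. They were Farsb with a slope of 0.65 ± 0.22 (SE), Iars with 0.60 ± 0.24, Gars, the glycine enzyme, with 0.46 ± 0.20 and Wars2 with -0.80 ± 0.34, in log2 units per log2 unit of Atf4. Yars, the tyrosine enzyme, came next with 0.69 ± 0.33. The slopes nearest to 0 by p were those of Vars2, -0.00 ± 0.33, Fars2, -0.03 ± 0.28, and Gatc, 0.04 ± 0.23. Slopes were above 0 for 18 of 20 cytosolic, 13 of 18 mitochondrial and 3 of 7 related genes, against 48.7% of all genes.

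Asns, the asparagine synthetase gene and a classical target of ATF4, ranged more widely than Atf4. It read 0.33, 1.56, 0.62, 0.62 and 0.63 FPKM in SG and 0.30, 0.38, 1.11, 4.29 and 1.76 in SHAM, with SHAM 4 far above the rest. A slope on Asns was fitted in place of Atf4, and none of the 45 genes passed in edgeR, against 0.00898% of all genes. The slope on Asns was not among the planned tests. At an unadjusted p under 0.05 there were 5 of 45, against 16.3% of all genes, so the share in the set was not above that of other genes. Aars had the smallest p, with a slope of 0.17 ± 0.04 (SE, adjusted p = 0.120). Iars followed among the cytosolic genes at 0.11 ± 0.05, while Fars2 and Pstk had slopes of -0.13 and -0.18.

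Set against the promoter letters, the 7 cytosolic genes with TTGCATCA had slopes on Asns above 0 in 7 of 7 and a median of 0.09, where 50.2% of all tested genes had a slope above 0. The 10 cytosolic genes with a window and without the letters had 5 of 10 above 0 and a median of 0.01. All 7 genes with the letters were highest in SHAM 3 or SHAM 4, as were 7 of 10 without and 25.6% of all tested genes. In SHAM 4 alone these were 5 and 2, and the share over all genes was not computed for it. Asns was itself highest in SHAM 4, so these counts and the slopes on Asns are not separate observations. No slope on Asns was fitted without SHAM 4, so how far the signs rest on that library was not tested. The median ratio of highest to lowest library was 1.89 with the letters and 1.60 without. Slopes on Atf4 were above 0 in 7 of 7 and 9 of 10, against 48.7% of all tested genes, with medians of 0.60 and 0.28. In each list 1 gene had an edgeR unadjusted p under 0.05 for that slope, against 4.9% of all tested genes. The median log2 difference between operations was -0.07 with the letters and -0.11 without. These values describe 17 genes in the same 10 libraries, and no test was made of the difference between the lists.

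Genes that work with the synthetases were read from lists chosen by function. Of 26 tested genes of the amino acid response and ATF4 targets, 0 passed in edgeR and 19 had a log2 fold change below 0, with a median of -0.24. Among all tested genes 0.0% passed, 52.6% were below 0 and the median was -0.01. The lowest differences of the list, -1.19 (Asns), -1.09 (Slc7a5) and -0.99 (Phgdh), came from genes near the filter of 1 FPKM. They averaged 0.75, 0.72 and 0.86 FPKM in SG and passed the filter only through SHAM, at 1.57, 1.51 and 1.57. SHAM 4 was their highest library, at 4.29, 4.25 and 5.24 FPKM. The median of the list without these genes was not computed. Cebpb, a C/EBP partner of ATF4, had the smallest p of this list, with a log2 difference of -0.74 ± 0.27 (SE, edgeR adjusted p = 0.991). It read 8.07 to 16.0 FPKM in SG and 13.1 to 26.9 in SHAM, and the groups overlapped. Ddit4, an inhibitor of mTORC1 signalling, and Psph, the last enzyme of serine synthesis, gave -0.88 and 0.47.

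Of the 16 tested genes of the eIF2 kinases and their partners, 0 passed and the median was -0.04. The kinases slow the initiation of translation, while the eIF2 and eIF2B subunits in the same list take part in initiation itself. Eif2b5, Eif2s2 and Eif2b2 had the smallest p there, at -0.14, 0.13 and -0.20. Of 10 tested genes of cytosolic elongation and termination 0 passed, with a median of 0.00 to 2 decimals. In that list Eef1b2, an exchange factor of the elongation factor that carries charged transfer RNA to the ribosome, gave 0.26 ± 0.10 (SE, edgeR adjusted p = 0.991), with Gspt1 at -0.18 and Eif5a at -0.10. Eef1b2 stood at 42.7 to 48.2 FPKM in SG and 29.7 to 42.1 in SHAM, which did not overlap, as for 1.34% of all genes.

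In mitochondria 0 of 21 tested translation factors and transfer RNA modifiers passed, with a median of -0.04. Tsfm, the exchange factor of the mitochondrial elongation factor Tu, gave -0.34 ± 0.11 (SE, edgeR adjusted p = 0.991), Elac2, which trims the 3′ end of transfer RNAs, gave -0.18 and Guf1 -0.19. Tsfm read 4.35 to 4.76 FPKM in SG and 4.23 to 5.93 in SHAM, where SHAM 5 was the low one. In the list of editing and related enzymes, 6 of whose 16 tested genes belong to the 45, 0 passed and the median was -0.02. Dtd2, Sephs1 and Eefsec had the smallest p there, at 0.23, -0.11 and -0.24. Of the 11 tested genes of the multisynthetase complex with its scaffolds 0 passed, with a median of -0.07.

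Most FPKM of several genes sat in isoforms that the authors' assembly had added to the reference. The 45 genes have 91 isoforms that match or overlap them on the same strand, 29 of them assembled, in 19 genes. In 12 genes the assembled isoforms held more than 50% of the gene's FPKM, led by Tarsl2 (98.5%), Nars (93.4%), Tars (93.4%) and Gatc (90.3%). KEGG text stands only on reference isoforms, so values summed over those alone would be far lower, 1.5 in place of 22.5 FPKM for Tars and 1.13 in place of 17.2 for Nars. The whole-gene sum is used here.

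The leading isoform was not the same in every library for 11 of the 24 genes that have more than 1 isoform. For Iars, an assembled isoform of 4509 nt read 0.33, 7.79, 6.85, 0.00 and 0.41 FPKM in SG and 0.35, 7.04, 0.42, 11.1 and 0.00 in SHAM. It held most of the gene's FPKM in 4 libraries and 0.42 FPKM or less in the other 6, where another assembled isoform of 5387 nt or the reference isoform of 5529 nt led. The libraries in which it led came from both groups. For Nars, an assembled isoform of 2690 nt ran from 0.53 FPKM in SHAM 2 to 20.1 in SHAM 1. For Tars, one of 3476 nt ran from 0.10 in SHAM 5 to 20.8 in SHAM 1. Such sharing of reads among near-identical isoforms is an estimate, and whether the swings are in the RNA was not tested.

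**Figure D5:**
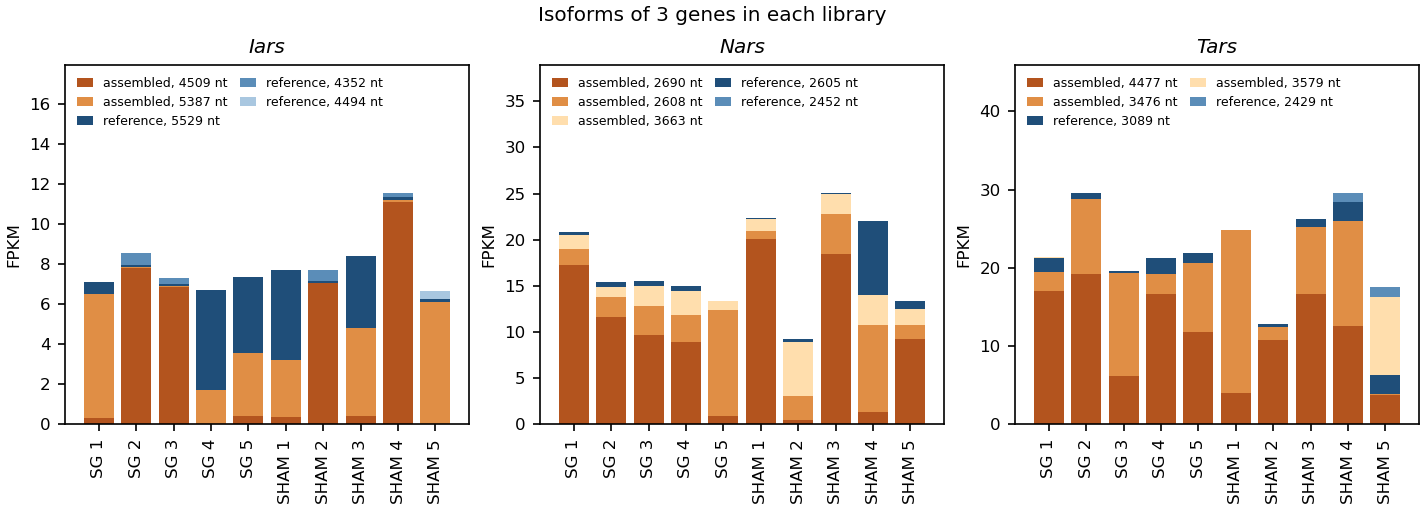
Stacked bars of isoform FPKM for Iars, Nars and Tars in each library, assembled isoforms in orange and reference isoforms in blue, named by length in nt. The height of each bar is the gene's level, and its leading colour changes from library to library within both groups, as for the 4509-nt isoform of Iars at 0.00 to 11.1 FPKM.

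The split bears on Gatb. Its FPKM was 5.02, 4.01, 5.08, 5.20 and 5.65 in SG and 5.92, 11.6, 4.24, 4.59 and 4.77 in SHAM, with SHAM 2 at the top. In CPM SHAM 2 was the lowest at 26.2, against 35.6 to 45.8 in the other SHAM libraries. In SHAM 2 the reference isoform of 1700 nt held 11.4 FPKM and the assembled isoform of 6988 nt held 0.22, while in the other 9 libraries they held 0.29 to 1.28 and 3.39 to 4.99. A short isoform gives more FPKM for the same reads, so the FPKM of Gatb in SHAM 2 is not comparable with the other libraries.

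Some of the genes overlap others in the table, and the sources used here do not say whether counting used strand. Mars (chr7:70585013-70602310 in Rnor_6.0, minus strand) overlaps Ddit3 on the other strand, a gene of the amino acid response. Sars2 overlaps Mrps12, Rars2 overlaps Slc35a1, Yars2 overlaps Dnm1l, Pstk overlaps Ikzf5, and Iars2 overlaps the microRNA genes Mir194-1 and Mir215, in each case on opposite strands. Gatc overlaps Cox6a1 on its own strand and Triap1 on the other. Reads of the partners on the opposite strand cannot be told apart from those of the enzymes without strand. For Gatc and Cox6a1, strand would not separate them.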

How the data were processed

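Rat liver RNA depleted of ribosomal RNA was sequenced as paired ends, per the labels' protocols. The submitters' processing notes list the genome build Rnor_6.0 and the tools HISAT2 2.0.4, StringTie 1.3.4, cutadapt 1.9 and FastQC 0.10.1. The file the authors deposited holds 51430 isoforms. Deposited FPKM is per isoform length and library size, per the file headers. Deposited estimated counts share reads among isoforms by estimate, per the values of the table, so count models rest on estimates. Members and lists were chosen with earlier results of these data known.

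FPKM and counts were summed per gene name over isoforms whose comparison code to the reference was =, c, j or o (equal, contained, sharing a junction or overlapping). Genes with a mean of at least 1 FPKM were tested. Counts were rounded, scaled by TMM and tested with edgeR 4.0.16 (R 4.3.3), quasi-likelihood, two-sided, with Benjamini-Hochberg adjustment over all tested genes and a threshold of 0.05, for the operation and for the slopes. CPM used a prior count of 2. Limma 3.58.1 on log2(FPKM + 0.5), a scale that understates differences of low genes, DESeq2 1.42.0 and the other alternatives are in the closing section. The fits were tested on simulated data. No pair of libraries agreed within sampling noise (lowest chi-square per degree of freedom 251).

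The genes named were those with unadjusted p under 0.05, the 4 smallest p in each direction among cytosolic and among mitochondrial genes, the 3 highest and lowest levels of each class, the 3 widest ratios between libraries, all multisynthetase enzymes, the 3 smallest p of each companion list, and for the Atf4 slope the 5 smallest and 3 largest p. Others were named after their values were seen. Promoter windows came from RefSeq, GRCr8. Windows were missing for 5 genes, and Mars2 and LOC100911305 had several and were not used. Protein sequences were not analysed here. The own values of 1 gene and 1 sequence are not reported here.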

Additional observations from a re-analysis of the deposited data

Results flagged for a closer look

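In 3 of 90 sets of 5 libraries (45 genes in 2 groups) the highest library stood farther from the next than Dixon's 95% critical value allows, where chance alone gives about 1 in 20. Tars in SG 2 read 29.6 FPKM where the rest of the group lay at 19.6 to 21.9, and in CPM it was also the highest at 149 against 94.8 to 117. Lars2, the mitochondrial leucine enzyme, in SG 1 read 5.19 FPKM against 4.13 to 4.28, and 20.3 CPM against 15.5 to 17.5. Gatb in SHAM 2 read 11.6 FPKM against 4.24 to 5.92, while its CPM of 26.2 was below the 35.6 to 45.8 of the other SHAM libraries.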

How the results depend on the processing

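The count of 0 among the 45 genes for the operation held in every alternative run. It was also 0 for the Atf4 slope, which says nothing about stability because that test called 0.0% of genes simulated with a slope of 1. The count over all genes was 18 with DESeq2, 0 to 1 when 1 library was left out, and 1 without SG 2 and SHAM 5. The direction of the log2 difference changed with limma on log2(FPKM + 0.5) for Dars (0.0175), Lars (0.0494), Mars (0.0551) and Qars (0.0512), and with log2(FPKM + 0.1) for Dars (0.0180), Lars (0.0515), Mars (0.0562) and Qars (0.0534). Limma on log2(FPKM + 0.5) also moved the median of all genes from -0.01 to 0.08, and log2(FPKM + 0.1) moved it to 0.09. These 4 genes lay below the all-gene median in edgeR and on both FPKM scales, so their place relative to it did not change. The direction changed with no filter for Tars (-0.0054), and over reference isoforms only for Iars (0.0288), Tars (-0.63) and Ears2 (0.31). Leaving out 1 library, or SG 2 and SHAM 5 together, gave -0.0473 to 0.0708 for Eprs, -0.0457 to 0.103 for Hars2, -0.0935 to 0.0180 for Lars, -0.103 to 0.0242 for Mars, -0.128 to 0.0046 for Qars, -0.203 to 0.143 for Tars and -0.0265 to 0.143 for Vars. The cause of these changes of direction was not tested. When 1 library was left out, the cytosolic median ran from -0.14 to -0.02, the latter without SHAM 3, and the mitochondrial median from -0.13 to -0.08.

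At an edgeR unadjusted p under 0.05, leaving out SHAM 5 gave 4 genes (Farsa, Iars, Sars and Sars2), against 644 of all 11127 tested. Leaving out SHAM 2 gave Iars and Nars, against 553 of all 11155. Over reference isoforms only it was Gatb of 41 genes tested, against 438 of all 9182. With the replicate number as a block, edgeR called 0 of the 45 genes, and 0 had an unadjusted p under 0.05, against 456 of all 11139. Same-numbered libraries correlated at -0.22 to 0.14, with 1 of 5 pairs over 0.1 and 1 library nearest to its own number, so the numbers were not taken as pairs. With 5 libraries a group the 95% interval reached 0.30 either side of the log2 difference at the median of the 45 genes, which limits the sizes that could be resolved.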
